A study of Homo sapiens with 15 samples.

Results

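The comparison of MM.1S cells in direct coculture with MM.1S cells in monoculture covers genes chosen by their expression. They are those whose RPKM averaged 1 or more across the 9 MM.1S libraries, and 10153 of the 20468 genes in the table met it. RPKM counts the read pairs of a gene per kilobase of its length, relative to all pairs counted in the library. MM.1S is an established human multiple myeloma (MM) line, and HS5 is an established human bone marrow stromal line. The HS5 cells were seeded overnight in the bottom of transwell plates. MM.1S cells were then placed directly on the HS5 cells (CO) and, in the same coculture, in the upper transwell above a membrane (TSW), or were kept in wells without stroma (MONO), all for 48 h without a drug. Which CO and TSW libraries shared a well is not given in the sources used here. Live cells were sorted as CD90-CD38+ before RNA isolation, to select myeloma cells by CD38 and leave out stromal cells by CD90. The authors state that a minimal share of HS5 cells remained in the sorted cells of the lower chamber, without showing the data. Each MM.1S condition had 3 replicates, and RPMI8226 cells, a second MM line, had 2 replicates per condition, which makes 15 libraries. Trypsin is described for the coculture conditions only, so its effect cannot be told apart from that of the coculture. HS5 cells are 1 line, and they do not stand for all stromal cells of the marrow.

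Stromal cells of the bone marrow secrete cytokines, above all IL6, that myeloma cells read through receptors, JAK kinases and STAT factors. Contact adds signals through integrins, Notch and other surface proteins, and both kinds of signal bear on survival, drug response and the secretory work of the plasma cell. Plasma cells make large amounts of immunoglobulin and depend on protein folding in the endoplasmic reticulum (ER) and on a steady supply of amino acids.

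The MONO libraries held 9008972, 19050755 and 13265496 read pairs on genes for replicates 1, 2 and 3, and the CO libraries held 16101351, 15342263 and 13825765. At these depths 1 pair on a transcript of 2 kb was worth between 0.0262 and 0.0555 RPKM, a limit that covers counting error only. Values for single libraries are given in the order of replicates 1, 2 and 3 throughout. Among the MONO libraries, MONO1 was the shallowest and stood apart on the second principal component, at 21.1 against -17.2 for MONO2 and -15 for MONO3. MONO2 was the deepest and held the pseudogene RPS14P3 at 84.2 RPKM, against 2.2 to 5.83 in the other MM.1S libraries. The mean distance among MONO libraries was 37.9, among CO libraries 20.6, and from CO to MONO 53.0. The CO libraries were therefore more alike than the MONO libraries.

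The identity of the cells was checked on plasma cell markers. SDC1, the surface marker CD138, had a mean of 164 RPKM in MONO and 161 in CO, and CD38 had 55.0 and 59.0. The sort selected for CD38, so its level is no independent check. IRF4, a factor on which myeloma cells depend, was at 118 and 127, and MZB1, a chaperone of antibody assembly, at 521 and 446. Of the 12 markers, PRDM1 and XBP1 were called higher in CO and TNFRSF17 and JCHAIN lower, as given with their groups. SLAMF7 had 94.1 and 65.5 RPKM (log2 change -0.51) and POU2AF1 68.6 and 92.6 (0.43), under the fold threshold. CD27 and FCRL5 were near 0 in every library and were not tested.

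Markers of stromal cells moved with the CO condition. The summed RPKM of 50 stromal markers was 34.1, 33.8 and 32.4 in MONO, where CAV1 was the most abundant, and 204, 225 and 195 in CO, where MMP1 was. In TSW the sum was 29.2, 29.1 and 32.7. The markers took 0.0664%, 0.0747% and 0.0628% of the read pairs in CO and 0.0101%, 0.0104% and 0.0105% in MONO. Of 8 defining markers (COL1A1, COL1A2, COL3A1, SPARC, THY1, LUM, DCN and PDGFRB), 5, 3 and 4 were at 0 in the MONO libraries and 0 in each CO library. THY1, which encodes the CD90 used in the sort, was at 0, 0.0219 and 0.0629 RPKM in MONO and at 0.57, 0.489 and 0.453 in CO. The summed level and the share of read pairs were thus higher in every CO library than in every MONO and TSW library. Single markers did not all follow, since CAV1 had a mean of 17.6 RPKM in MONO and 13.6 in CO, and PDGFRB had 0.11 in CO3 and 0.14 in TSW2. The part of stromal RNA in the other results was not tested.

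**Figure D1:**
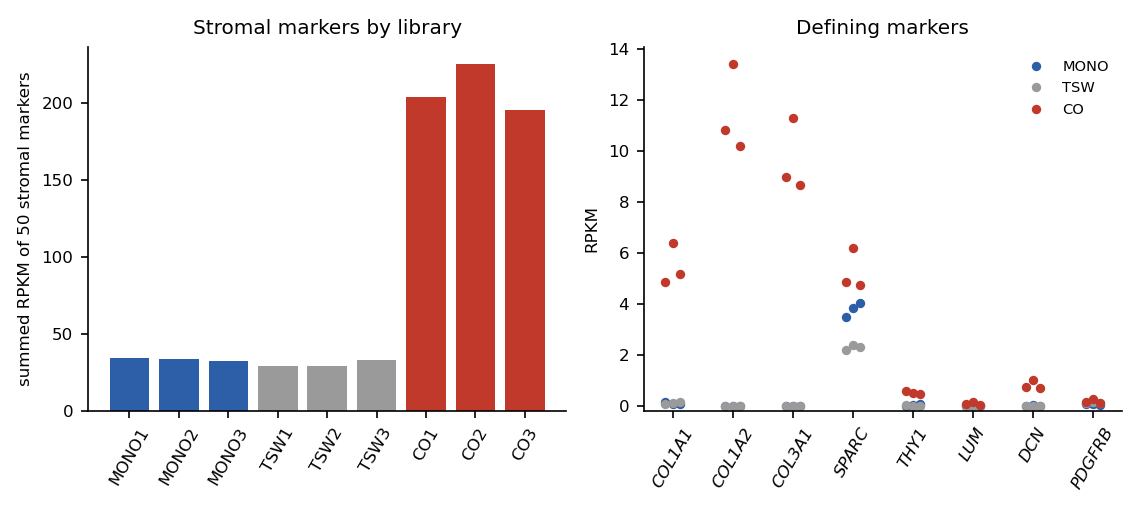
Stromal markers in the 9 MM.1S libraries. One panel shows the summed RPKM of 50 markers per library, between 195 and 225 in CO and under 35 in MONO and TSW. The other shows the 8 defining markers per library in RPKM on a linear scale.

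With limma, 724 of 10153 genes (7.13%) were higher in CO than in MONO and 472 (4.65%) were lower, for which a call needs an adjusted p under 0.05 as well as a change of more than 1.5-fold on the log2(RPKM + 1) scale. All adjusted p-values are those of limma with Benjamini-Hochberg adjustment over all tested genes, every log2 change is on this scale with its SE, and each condition has n = 3. A value in parentheses after RPKM values, or after a library or setting left out or changed, is the log2 change. The scale understates the change of genes with a low RPKM. The 15 largest rises and falls named in the text were chosen among called genes whose CO and MONO values did not overlap. A lack of overlap is therefore no result for them. It was also usual among all called genes, at 719 of the 724 higher and 468 of the 472 lower. Where it is mentioned for a called gene, it adds little to the call. Whether replicates came from separate cultures is not given in the sources used here, so p-values measure the spread between libraries, which may be technical. Without MONO1, 549 genes (5.4% of 10161) were higher and 420 (4.13%) lower, and 70.6% of the calls were kept. Without MONO2, 850 (8.37% of 10150) were higher and 482 (4.75%) lower. The RPKM threshold passed LDLRAD3 (1.0035), AKAP2 (1.0036) and SLC35F1 (1.0044) just above it, and left out IL24 (0.9987), NT5E (0.9976) and GAS2L1 (0.9975) just below.

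A log2 change of at least 2 was reached by 53 of the higher and 9 of the lower genes, and a change of at least 3 by 16 and 2. Of the higher genes, 40 passed the RPKM threshold only through CO, which selects for large rises, and some of these may hold HS5 RNA. Without such genes the counts were 33 and 9, and 7 and 2. The higher genes started from a low level, with a median of 4.88 RPKM in MONO and 10.2 in CO. The lower genes had a median of 17.5 RPKM in MONO and 8.85 in CO, while the median of all tested genes in MONO was 10.5. In MONO, 13 of the higher genes had no read pair in any library. Both groups also differed in their transcripts, with a median length of 4717 bases and a median GC content of 43.0% for the higher genes, 2433 bases and 55.4% for the lower genes, and 3664 bases and 47.6% for all tested genes. When every library was corrected by loess for GC and length, 66% of the calls were kept.

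**Figure D2:**
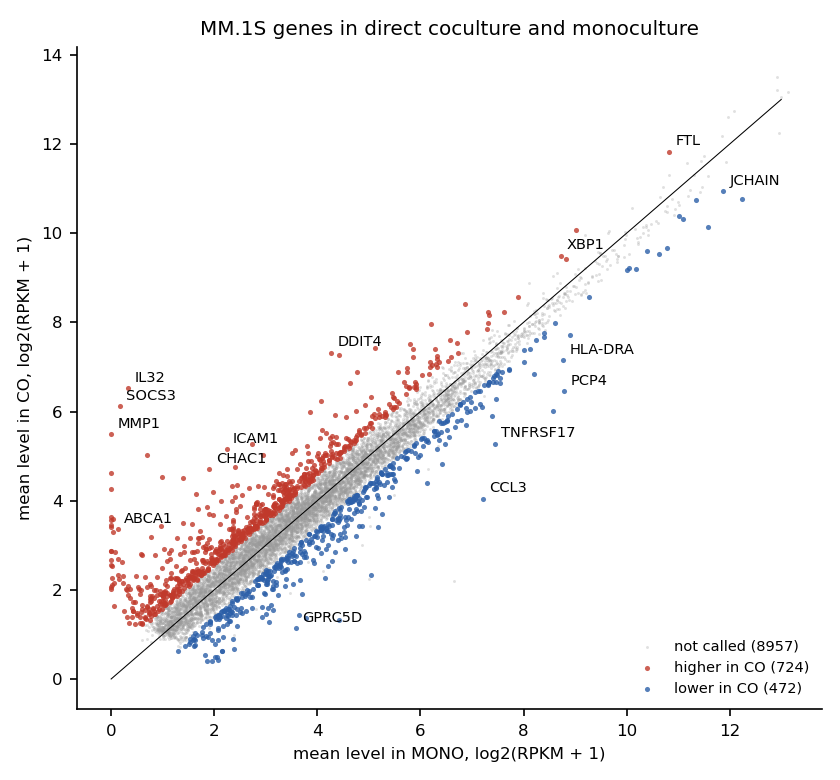
Mean expression of each tested gene in MONO (horizontal) and CO (vertical) as log2(RPKM + 1). Red points are the 724 genes higher in CO, blue points the 472 lower, gray points the 8957 not called, and named points are genes described in the text.

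The genes were read through 33 lists of pathways, complexes and markers, which hold 1102 genes, 942 of them tested. The median log2 change of all tested genes was 0.01, and at an unadjusted p under 0.05 limma gave 2310 higher and 2156 lower. The called counts of every list stand against 7.13% higher and 4.65% lower among all tested genes. Counts near or under these shares are no result about a list. Where a list had a count of 0, the counts at an unadjusted p under 0.05 and with voom, the limma method for counts, are given beside it. Outside the stromal markers, most of which were tested only because of their level in CO, the largest shares of higher genes were in the ATF4 stress response and the aminoacyl-tRNA synthetases, and the largest share of lower genes was in MHC class II presentation.

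**Figure D3:**
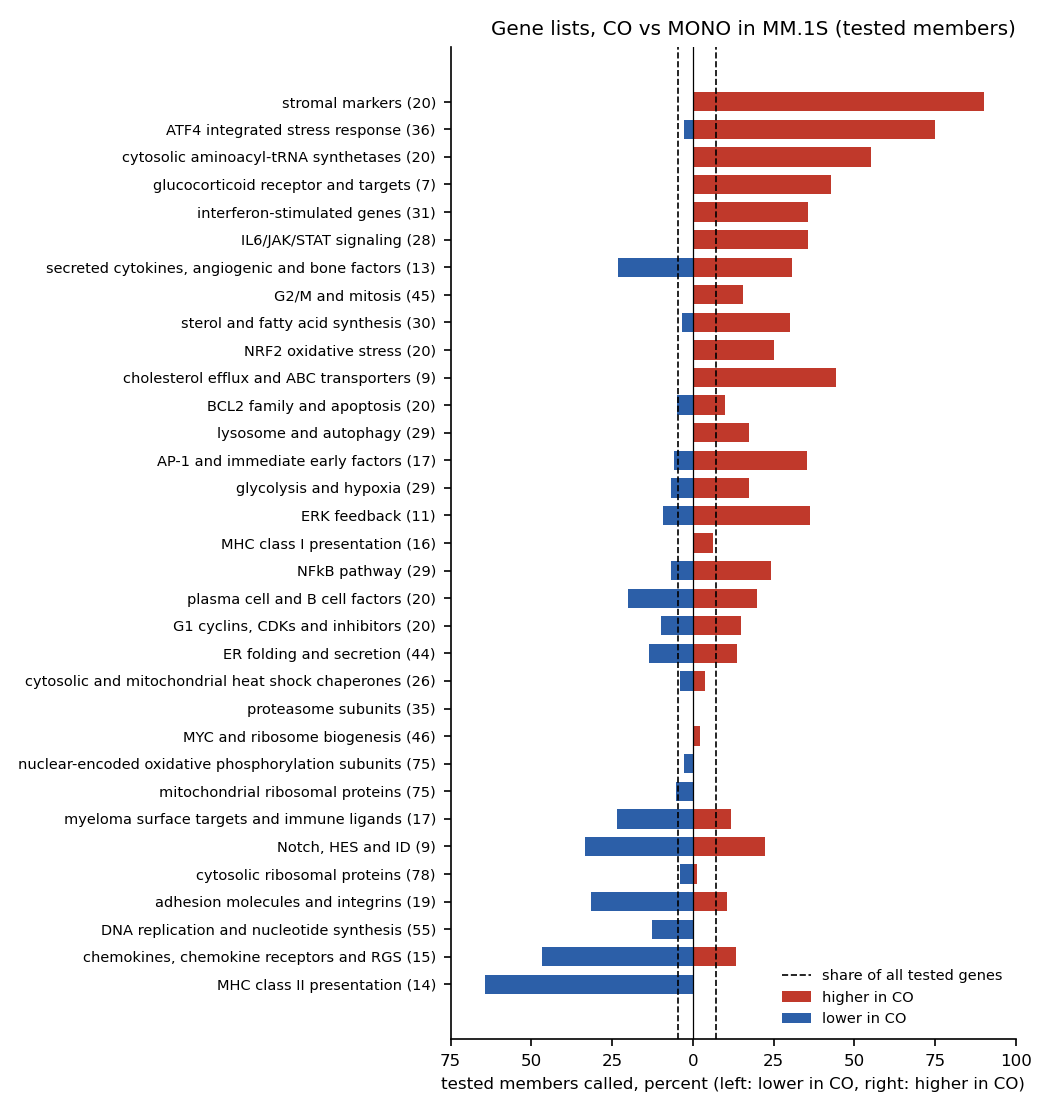
Percent of the tested members of each list called higher (red) or lower (blue) in CO than in MONO. Dashed lines mark the shares of all tested genes, 7.13% higher and 4.65% lower.

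Signaling through JAK and STAT was the first group. Of 28 tested members 10 rose and 0 fell (19 and 4 at an unadjusted p under 0.05, 10 and 2 with voom), with a median log2 change of 0.43. SOCS3, the inhibitor that STAT3 induces to shut off its own receptor, was at 0.162, 0.115 and 0.11 RPKM in MONO and at 65.6, 71.9 and 68.4 in CO, a log2 change of 5.95 ± 0.08 (adjusted p = 6.35e-12). All 3 CO libraries were far above all MONO libraries. A larger share of cells with the transcript and more transcript per cell cannot be told apart in bulk RNA, here or for any other gene. SOCS3 lies at chr17:78356778-78360925 (GRCh38). Its mean in TSW was 64.4 RPKM.

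Of 6 tested factors of this pathway 3 rose. STAT3, the main factor downstream of IL6, was at 14.9, 15.8 and 16 RPKM in MONO and at 39.9, 41.7 and 42.2 in CO (log2 change 1.35 ± 0.08, adjusted p = 5.18e-07). STAT4, a factor downstream of IL12 chosen after its values were seen, rose from 1.1, 1.26 and 1.37 to 4.43, 3.97 and 4.2 RPKM (log2 change 1.21). Among 4 tested kinases only JAK3, which serves the common gamma chain receptors, was called. It was at 4.38, 4.47 and 4.37 RPKM in MONO and at 19.9, 19.5 and 19.3 in CO (log2 change 1.93 ± 0.08, adjusted p = 4.83e-08). JAK1 had 23.1, 50.5 and 47.1 RPKM in MONO and 31.7, 31.7 and 31 in CO. It was not called with all libraries, but without MONO1 it was lower in CO, with a log2 change of -0.62. The receptor subunit IL6R had a mean of 71.4 RPKM in MONO and 92.2 in CO and did not pass the fold threshold (log2 change 0.37).

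Targets of STAT3 rose in 5 of 7 tested cases. SGK1, a kinase of ion transport and survival, was at 16.1, 22.7 and 22.8 RPKM in MONO and at 161, 145 and 152 in CO, a 7.45-fold ratio (adjusted p = 5.98e-08). BCL3, an atypical member of the I-kappaB family, went from a mean of 5.35 to 18.6 RPKM (log2 change 1.63). PIM2, a survival kinase with high expression in myeloma, went from 516 ± 39.9 (SD) to 1080 ± 65.3 RPKM (log2 change 1.06). Its relative PIM1 had 44.9 and 52.7 RPKM and was not called. MCL1, the survival protein of plasma cells, had 112 and 157 RPKM with a log2 change of 0.47, under the fold threshold, and it passed only after quantile normalization (0.63).

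**Figure D4:**
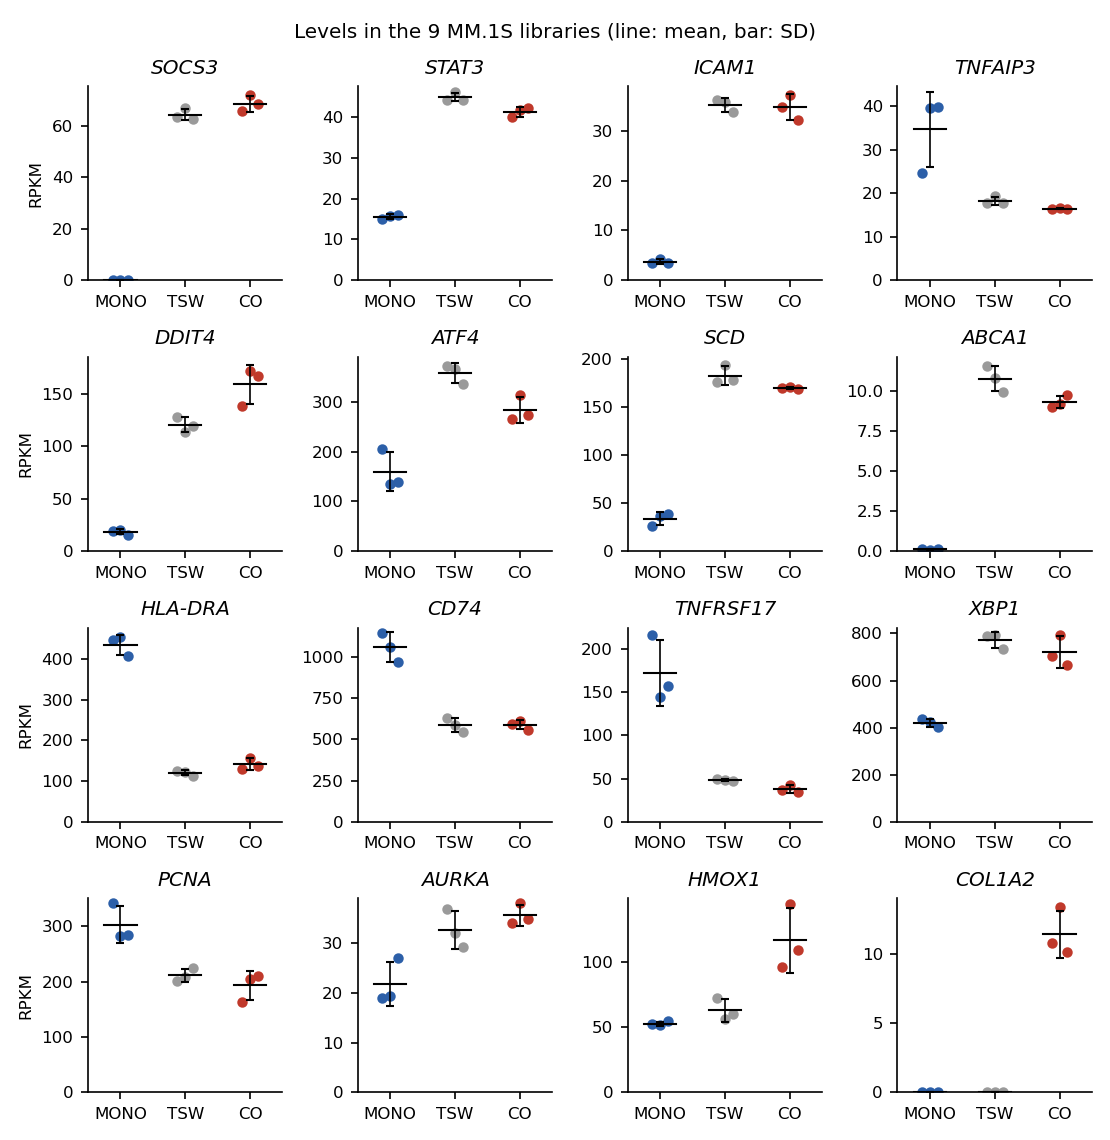
RPKM of 16 genes in every MM.1S library in MONO, TSW and CO. Points are libraries, lines are means and bars are the SD, with SOCS3, STAT3, ICAM1 and DDIT4 high in CO and HLA-DRA, CD74 and TNFRSF17 low.

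The NFkB pathway was split by role. Of 29 tested members 7 rose and 2 fell, and the median log2 change was 0.04 (0.11 without MONO1). No subunit was called. The subunit NFKB1 had a mean of 29.6 RPKM in MONO and 25.4 in CO, and the inhibitor NFKBIA had 20.8 and 15.7 with a log2 change of -0.38. Of 10 targets 4 rose and 1 fell. ICAM1, the adhesion ligand of leukocyte integrins (chr19:10271120-10286615), was at 3.45, 4.35 and 3.41 RPKM in MONO and at 34.8, 37.3 and 32.2 in CO (log2 change 2.92 ± 0.10, adjusted p = 8.65e-09). IER3, an early response gene of survival, was at 1.97, 1.31 and 0.365 RPKM and at 6.26, 4.63 and 5.66, with a mean of 1.93 in TSW. TNFAIP2 was at 0, 0.0298 and 0 RPKM in MONO and at 3.12, 3.35 and 3.42 in CO, and SOD2, the mitochondrial superoxide dismutase, went from a mean of 23.1 to 41 RPKM. The target TNFAIP8 fell from 22.3, 22.3 and 21.1 RPKM to 10.6, 8.9 and 9.39 (log2 change -1.11).

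Proteins that tune NFkB changed in both directions. BIRC3, a ubiquitin ligase at TNF receptors, was at 23.6, 20 and 24.3 RPKM in MONO and at 69.9, 48 and 54.9 in CO (log2 change 1.30 ± 0.14). NFKBIZ, a nuclear regulator, went from 0.529, 1.01 and 0.988 to 2.62, 2.22 and 3.22 RPKM, and the kinase MAP3K8 from 1.02, 1.03 and 1.03 to 2.72, 2.54 and 3.11. TNFAIP3 (A20), the deubiquitinase that ends NFkB signals, fell from 24.7, 39.5 and 39.7 RPKM to 16.3, 16.6 and 16.4 (a 0.475-fold ratio, adjusted p = 0.000905). Every CO library lay below every MONO library for TNFAIP3, as for TNFAIP8.

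Promoters were searched for motif letters on both strands in windows from 250 bases before to 50 after each gene start, from the RefSeq table of GRCh38.p14. The table gave promoters for 27305 genes, 8270 of them tested here, and every listed start of a gene was searched, so genes with several starts had more chances to match. The counts therefore depend on this choice, and counts of list members with only the first or only the last start are given where they differ. A match is a description of letters and does not show that a factor binds. The kappaB letters GGNNTTTCC were in 7.61% of all promoters, in 9.08% of those of tested genes and in 15 of 25 members of the NFkB list (11 with the first and 12 with the last start). They were in 5 of 6 members that rose (4 with the last start) and 1 of 2 that fell. The stretches of these 6 genes are shown because their expression moved in both directions under similar letters, with the match in capitals and 10 bases on each side, read along the strand of the gene. Where a gene holds several matches, 1 is shown.
NFKBIZ: ttttggtctgGGAATTTCCagtgtgcaga
MAP3K8: ggggagacgcGGAATTTCCcagcgcgggg
BIRC3: tttgggtcatGGAAATCCCcgagtgggtt
ICAM1: gctttagcttGGAAATTCCggagctgaag
TNFAIP2: ctccgcccgcGGGTTTTCCgcggttgcgg
TNFAIP3: aaagtcccgtGGAAATCCCcgggcctaca
These lie on the plus strand at chr3:101827758-101827786 (NFKBIZ), chr10:30433982-30434010 (MAP3K8), chr11:102317275-102317303 (BIRC3), chr19:10270924-10270952 (ICAM1), chr14:103123354-103123382 (TNFAIP2) and chr6:137867194-137867222 (TNFAIP3), all before a listed gene start. ICAM1 and BIRC3, which rose, and TNFAIP3, which fell, carry the letters on the reverse strand of the gene.

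Factors of the AP-1 family and other immediate early genes had 6 of 17 members higher and 1 lower, with a median log2 change of 0.11 (0.22 without MONO1, 0.06 after quantile normalization and 0.21 after loess). JUNB was at 17.8, 15.7 and 14.2 RPKM in MONO and at 76.4, 73.9 and 71.4 in CO (log2 change 2.15 ± 0.09, adjusted p = 5.16e-08). FOS, its partner, was at 0.154, 0.17 and 0.21 RPKM and at 2.96, 2.96 and 4.32. MAF, a factor that drives a subset of myelomas, went from 47.6, 62.4 and 61.3 to 179, 124 and 145 RPKM (log2 change 1.36 ± 0.14). IER2 went from 0.742 to 2.61 RPKM. KLF2, a factor of quiescence and homing in lymphocytes, fell from 20.2, 17.8 and 12.3 RPKM to 3.94, 3.58 and 3.93 (log2 change -1.85 ± 0.19, adjusted p = 4.16e-05). All KLF2 values of CO were far below the lowest MONO value. The AP-1 letters TGACTCA were in 6.05% of all promoters, in 4.27% of those of tested genes, in 1 of 14 members of this list and in 0 of the 6 that rose.

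Interferon-stimulated genes rose in 11 of 31 tested cases and fell in 0 (19 and 1 at an unadjusted p under 0.05, 13 and 0 with voom), with a median log2 change of 0.48. The strongest were guanylate-binding proteins and the ADP-ribosylation module. GBP2 was at 2.07, 2.3 and 2.08 RPKM in MONO and at 18.3, 15.1 and 16.6 in CO (log2 change 2.49 ± 0.10, adjusted p = 3.11e-08). GBP4 went from a mean of 1.67 to 6.85 RPKM (log2 change 1.55) and GBP1 from 12, 13.6 and 15.9 to 26.4, 25.8 and 25. PARP9, which modifies ubiquitin, was at 0.593, 0.683 and 0.831 RPKM and at 8.58, 7.69 and 7.87 (log2 change 2.41 ± 0.10), and its partner DTX3L, a ubiquitin ligase, went from 9.07 to 22.8 RPKM. MX1, an antiviral GTPase, was at 0.934, 1.39 and 1.08 RPKM and at 2.57, 2.55 and 2.81. All 4 tested members of the ubiquitin role rose. The most abundant member, BST2, had 486, 332 and 304 RPKM in MONO and 306, 359 and 377 in CO, and the sign of its small log2 change (-0.08) turned without MONO1 (0.12).

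The core letters of the interferon-stimulated response element, GAAANNGAA, were in 9.86% of all promoters, in 8.84% of those of tested genes, in 17 of 27 members of this list (16 with the first and 17 with the last start) and in 7 of 9 that rose (6 and 7). They are shown for these 7 genes, with the match in capitals.
MX1: gagcagaaatGAAACCGAAactgaattgt
EPSTI1: ctgattctgaGAAACCGAAactcagctgt
PARP14: tccaggaaacGAAAGCGAAagagtcaaag
DTX3L: ccagggaagcGAAACTGAAactttgcgcc
PARP9: ggcgcaaagtTTCAGTTTCgcttccctgg
GBP4: tgcatgtcctTTCAATTTCggttctcaca
GBP1: acgaagtactTTCAGTTTCatattactct
DTX3L and PARP9 are divergent neighbors and share 1 stretch, at chr3:122564322-122564350, shown along the strand of each gene. PARP14 lies at chr3:122680800-122680828 on the plus strand, MX1 at chr21:41420559-41420587 on the plus strand, EPSTI1 at chr13:42992273-42992301 on the minus strand, and GBP4 and GBP1 at chr1:89198927-89198955 and chr1:89065316-89065344 on the minus strand. The MX1 letters lie within the first transcribed bases of a listed start, and the others begin before the start. GBP1 and MX1 hold further matches that are not shown, as do NFKBIZ and TNFAIP3 for the kappaB letters. PARP14 (log2 change 0.75) was not called after the loess correction (0.50) or without MONO1 (0.56). EPSTI1 (0.60), which went from 1.89 to 3.38 RPKM, was not called after median-of-ratios scaling, quantile normalization or the loess correction, or without MONO3, CO1 or CO3 (0.58 each).

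MHC class I presentation is often induced by interferon. Of 16 tested members 1 rose and 0 fell with limma (7 and 3 at an unadjusted p under 0.05, 1 and 0 with voom), 2 rose when any MONO library was left out, and the median log2 change was 0.05 (0.13 without MONO1, 0.17 after quantile normalization and 0.15 after loess). B2M, the light chain, had a mean of 793 RPKM in MONO and 1030 in CO (log2 change 0.39) and was called only after quantile normalization (0.59). The member that rose was NLRC5, the transactivator of class I genes, at 0.679, 1.26 and 0.972 RPKM in MONO and 1.8, 2.54 and 2.29 in CO (log2 change 0.71 ± 0.13), which quantile normalization brought to 0.57, under the threshold. GAAANNGAA was in 9 of 12 promoters of the class I list (7 with the first or the last start).

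Most tested genes of MHC class II presentation fell, while of 4 regulators 1 did. Of 14 tested members 9 fell and 0 rose (11 and 0 at an unadjusted p under 0.05, 9 and 0 with voom), with a median log2 change of -0.84, and 7 of the 8 chains were among them. HLA-DRA, the alpha chain of HLA-DR (chr6:32439887-32445046), was at 445, 453 and 407 RPKM in MONO and at 130, 157 and 137 in CO (log2 change -1.62 ± 0.10, adjusted p = 1.1e-06). HLA-DRB1 fell from 109, 63.8 and 80.1 RPKM to 26.7, 30.6 and 24.8 (log2 change -1.56 ± 0.17), and HLA-DRB5 from a mean of 17.5 to 4.82 (-1.66). All MONO values of these genes were above all CO values. The peptide loading chains fell too, with HLA-DMA at 39.7, 34.4 and 27.1 RPKM in MONO and 14, 14.9 and 10.6 in CO, and HLA-DMB at 7.29 and 2.01 on average.

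The invariant chain and the master regulator fell with the chains. CD74, which guides class II molecules through the cell (chr5:150401639-150412910), had 1150, 1060 and 968 RPKM in MONO and 596, 615 and 560 in CO (log2 change -0.84 ± 0.12, adjusted p = 0.000421). CIITA, the transactivator of class II genes, was at 2.83, 4.55 and 4.07 RPKM in MONO and at 1.57, 1.64 and 1.78 in CO (log2 change -0.84 ± 0.14, adjusted p = 0.00131). Its mean in TSW was 1.26 RPKM, and that of HLA-DRA was 120. HLA-DRB1 and HLA-DRB5 are close paralogs whose reads the counting could split, so their separate levels are uncertain.

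The integrated stress response driven by ATF4, which restores amino acid supply, was the largest group of rises outside the stromal markers. Of 36 tested members 27 rose and 1 fell, with a median log2 change of 0.92, and 25 rose without MONO1. ATF4 itself was at 205, 135 and 139 RPKM in MONO and at 265, 313 and 274 in CO (log2 change 0.85 ± 0.15, adjusted p = 0.0023). DDIT3 (CHOP), a partner factor chosen after its values were seen, was at 5.52, 3.85 and 4.99 RPKM and at 13.4, 19.2 and 17.2 (log2 change 1.60 ± 0.14). ATF5 was the member that fell, from 10.9, 7.58 and 6.78 RPKM to 2.89, 2.68 and 2.52 (log2 change -1.33 ± 0.16, adjusted p = 0.000149). Of 6 tested factors 4 rose and ATF5 fell, and the 3 CO libraries of each named factor lay apart from the MONO libraries.

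The feedback genes DDIT4 and CHAC1 had the largest log2 changes of the list. DDIT4 (REDD1), an inhibitor of mTORC1 (chr10:72273924-72276036), was at 18.6, 20.4 and 15.5 RPKM in MONO and at 138, 172 and 167 in CO (log2 change 3.06 ± 0.12, adjusted p = 2.39e-08). CHAC1, which degrades glutathione, was at 1.85, 3.73 and 2.66 RPKM and at 22.3, 27.7 and 24.9 (log2 change 2.82 ± 0.16). TRIB3, a pseudokinase that damps ATF4, went from a mean of 17.3 to 31.4 RPKM (log2 change 0.82). The mean of CHAC1 in TSW was 42.9 RPKM, and that of TRIB3 49.3. In all, 4 of 5 feedback members rose.

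Enzymes and transporters that bring amino acids rose together, 10 of 12 in synthesis and 5 of 8 in transport. ASNS, which makes asparagine, was at 49, 42.6 and 46.6 RPKM in MONO and at 107, 128 and 117 in CO (log2 change 1.33 ± 0.10). PSAT1, of serine synthesis, was at 50.2, 54.6 and 59.2 RPKM and at 163, 188 and 192 (log2 change 1.71 ± 0.10, adjusted p = 5.18e-07). SLC7A11, the cystine importer, was at 0.778, 1.08 and 1.26 RPKM and at 7.1, 5.67 and 7.03 (log2 change 1.90 ± 0.12). SLC7A5, the leucine importer, chosen after its values were seen, went from 73.5, 81.8 and 76.2 to 163, 189 and 155 RPKM (log2 change 1.12 ± 0.10). Secreted products of the response rose in 3 of 3 tested cases, with INHBE at 0.398 and 3.94 RPKM and VEGFA, the angiogenic factor, at 8.75 and 17.9 on average. No value of these genes in CO overlapped with one in MONO, as for 719 of the 724 higher genes.

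**Figure D5:**
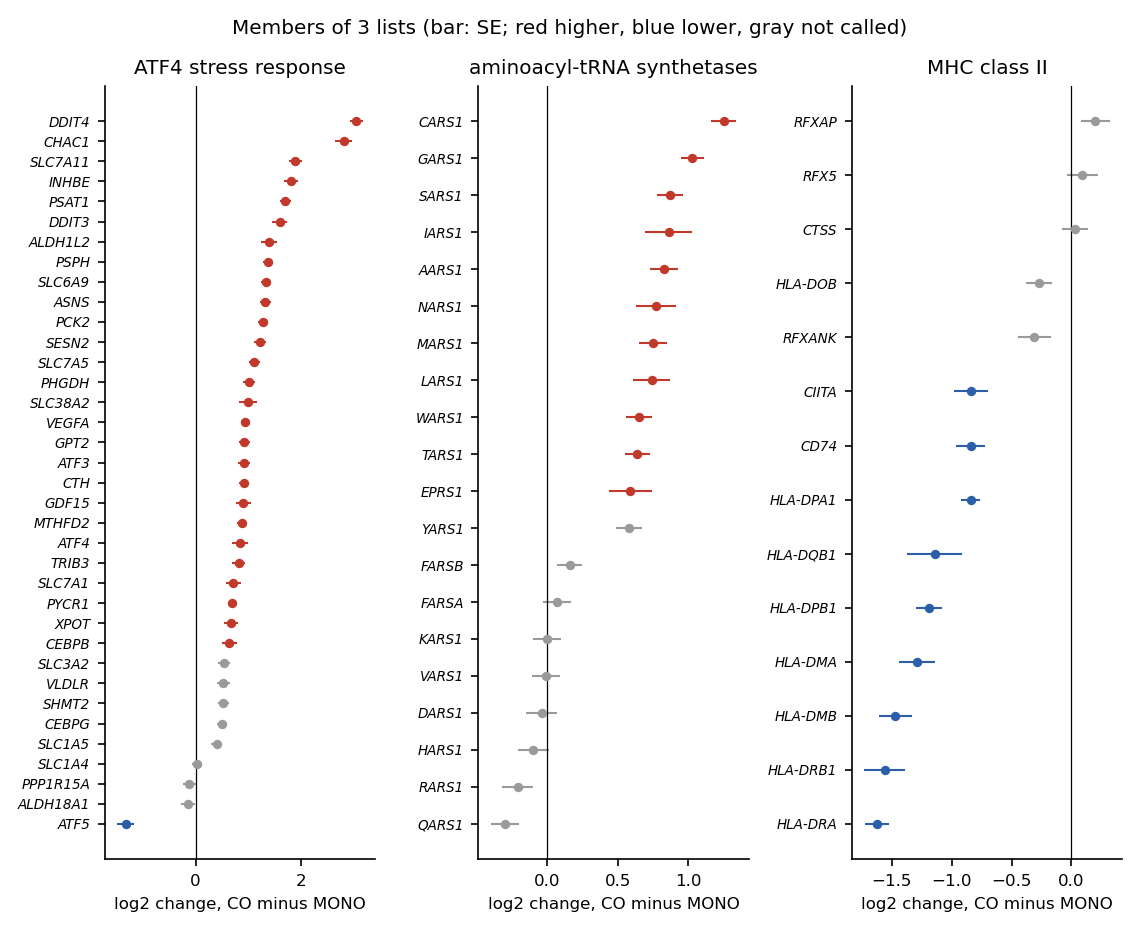
Log2 change in CO against MONO, with its SE, for every tested member of the ATF4 stress response, the aminoacyl-tRNA synthetases and MHC class II presentation. Red points are higher, blue points lower and gray points not called, with 27, 11 and 0 members higher and 1, 0 and 9 lower.

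Cytosolic aminoacyl-tRNA synthetases, which load amino acids on tRNAs, rose in 11 of 20 cases and fell in 0 (12 and 1 at an unadjusted p under 0.05, 12 and 0 with voom), and the median log2 change was 0.61. Without MONO1 the count was 8. CARS1, for cysteine, was at 28.4, 24.7 and 24.8 RPKM in MONO and at 59.2, 67.1 and 63 in CO (log2 change 1.25 ± 0.09, adjusted p = 3.11e-06). GARS1, for glycine, went from 92.2, 96.5 and 93 to 183, 195 and 200 RPKM (log2 change 1.03 ± 0.08). SARS1, IARS1 and AARS1 had log2 changes of 0.87, 0.86 and 0.83, MARS1 0.75, NARS1 0.77 and TARS1 0.64. For IARS1 the MONO libraries were uneven, at 51.5, 83.1 and 85.3 RPKM against 116, 137 and 139 in CO. EPRS1, the most abundant, had 114, 181 and 173 RPKM in MONO and 214, 236 and 242 in CO (log2 change 0.59), and its call was lost without MONO1 (0.38), CO2 (0.57) or CO3 (0.55) and after median-of-ratios scaling (0.57) or the loess correction (0.42). NARS1 (0.58) and TARS1 (0.57) were not called without MONO1, and TARS1 not after the loess correction (0.56).

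The ATF4-CEBP letters TGATGCAA were in 1.08% of all promoters and in 0.713% of those of tested genes. They were in 6 of 16 synthetase promoters, and these were 6 of the 10 that rose (6 with the first start, 4 with the last). In the ATF4 list they were in 4 of 28 promoters (1 with the first start, 4 with the last) and in 1 of 20 that rose, CHAC1. The stretches of the 6 synthetases and of CHAC1 are shown because nearly the same letters stand in genes that rose by between 0.64 and 2.82 on the log2 scale.
CHAC1: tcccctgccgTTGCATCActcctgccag
AARS1: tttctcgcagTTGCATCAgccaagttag
CARS1: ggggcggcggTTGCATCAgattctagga
IARS1: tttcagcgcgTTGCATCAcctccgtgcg
MARS1: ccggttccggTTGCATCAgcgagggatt
TARS1: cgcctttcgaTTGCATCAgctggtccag
NARS1: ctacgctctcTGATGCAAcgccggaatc
Capitals mark the match, on the reverse strand of the gene in all but NARS1. The positions are chr15:40953252-40953279 (CHAC1), chr12:57488054-57488081 (MARS1) and chr5:33440957-33440984 (TARS1) on the plus strand, and chr16:70289676-70289703 (AARS1), chr11:3057408-3057435 (CARS1), chr9:92293693-92293720 (IARS1) and chr18:57621805-57621832 (NARS1) on the minus strand. The match starts 209 bases before the gene start in CHAC1 and 187 in AARS1, and in TARS1 and NARS1 it lies within the first transcribed bases.

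ER folding and secretion genes had as many rises as falls, 6 and 6 of 44, and 4 and 3 without MONO1, while without CO1 3 fell. The median log2 change of 0.00 was 0.11 after quantile normalization and -0.10 after the loess correction. Of 4 sensors 3 rose, and of 9 degradation factors 2. Without MONO1, 2 sensors rose and 1 fell, and after the loess correction 3 rose and 1 fell. In each of these settings 1 degradation factor rose. XBP1, the factor that builds the secretory apparatus, was at 438, 422 and 404 RPKM in MONO and at 703, 795 and 665 in CO (log2 change 0.77 ± 0.11, adjusted p = 0.000517). ATF6 went from 14.5, 22.8 and 21.9 to 38.6, 36 and 38.6 RPKM (log2 change 0.93), and EDEM1, which sorts misfolded glycoproteins for degradation, from 37.7, 67.2 and 65.7 to 164, 167 and 170 (1.58 ± 0.18). The disulfide enzyme ERO1B rose from 0.764 to 1.99 RPKM (0.77) and was lost after the loess correction (0.47).

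Of 9 disulfide enzymes 3 fell, of 11 chaperones 1 and of 11 translocation proteins 2, and the translocation role had a median log2 change of 0.05. Without MONO1, after quantile normalization and after loess this median was -0.04, 0.16 and -0.19, and 0 translocation proteins fell in each. TXNDC11 fell from 168, 187 and 171 RPKM to 99.3, 106 and 93.9 (log2 change -0.81 ± 0.09), and TXNDC5 from 27.9, 59.9 and 44.1 to 19.4, 23.4 and 21.3 (-0.95 ± 0.21), with a TSW mean of 30.9. ERP44, which retains unfinished proteins, fell from 29.2 to 18.5 RPKM (-0.63), a call lost without MONO1 (-0.56) or CO2 (-0.57). SSR4, of the translocon, fell from 157 to 96.2 RPKM (-0.69), a call lost without MONO1 (-0.56) or CO1 (-0.59) and after quantile normalization or the loess correction. The main chaperone HSPA5 (BiP) had 244, 227 and 230 RPKM in MONO and 215, 250 and 235 in CO, with overlapping values. CALR had means of 905 and 681 RPKM and did not pass the fold threshold (-0.40). The XBP1 and ATF6 target letters TGACGTGG (UPRE) were in 0.927% of all promoters, in 1.22% of those of tested genes, in 5 of 39 members (2 with the first start, 5 with the last), in 3 of 5 that fell (1 with the first start, 3 with the last) and in 0 of 6 that rose.

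Cytosolic and mitochondrial heat shock proteins had 1 of 26 members higher and 1 lower (3 lower without MONO2), and their median log2 change of -0.10 was -0.06 without MONO1 and 0.01 after quantile normalization. HSPA8, the constitutive HSC70, had 1360, 1310 and 1380 RPKM in MONO and 691, 827 and 796 in CO (log2 change -0.81 ± 0.12, adjusted p = 0.000613). It stands among the 10 largest falls of mean RPKM, and quantile normalization brought it to -0.55, under the fold threshold. The inducible HSPA1A rose from 0.777, 0.519 and 0.683 to 1.74, 2.17 and 1.64 RPKM (0.78), and quantile normalization ended that call (0.58). Proteasome subunits had 0 of 35 called in either direction by limma or voom, with 2 higher and 6 lower at an unadjusted p under 0.05 and a median log2 change of -0.15 (-0.09 without MONO1 or after loess, -0.03 after quantile normalization). Their most abundant member, PSMB4, had 658, 576 and 512 RPKM in MONO and 362, 490 and 416 in CO.

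Lipid synthesis rose in part. Of 30 tested members 9 rose and 1 fell, with a median log2 change of 0.33. SREBF1, which encodes the factor of fatty acid synthesis SREBP1, was at 3.68, 4.93 and 4.32 RPKM in MONO and at 23.9, 28 and 26.3 in CO (log2 change 2.36 ± 0.11, adjusted p = 8.18e-08). SCD, the desaturase that makes oleate, was at 26.1, 36 and 38.9 RPKM and at 170, 171 and 169 (2.32 ± 0.13). INSIG1, which holds SREBP in the ER, went from 32 to 79.3 RPKM (1.29). The sterol enzymes themselves rose in 2 of 17 cases. HMGCS1 had 11.2 and 13.2 RPKM and was not called (0.25). Without CO1 no member of the list fell. Regulators, uptake and fatty acid genes thus held 7 of the 9 rises.

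Cholesterol efflux genes and drug transporters rose in 4 of 9 cases and fell in 0 (5 and 1 at an unadjusted p under 0.05, 4 and 0 with voom), with a median log2 change of 0.23 (0.38 after loess). The rises were efflux genes and receptor targets, and no drug transporter was called. ABCA1, the exporter of cholesterol and target of the liver X receptors (chr9:104781006-104928155), was at 0.102, 0.0818 and 0.111 RPKM in MONO and at 8.98, 9.14 and 9.74 in CO, a 94.7-fold ratio (log2 change 3.23 ± 0.09, adjusted p = 1.58e-09). ABCG1 was at 0.174, 0.276 and 0.25 RPKM and at 2.84, 3.43 and 2.71 (1.69 ± 0.10). MYLIP, a ubiquitin ligase, went from 2.44 to 6.8 RPKM, and LPCAT3, a phospholipid remodeling enzyme, from 18.4 to 31.2. All 4 are known targets of the same receptors, and LPCAT3 overlaps EMG1 on the opposite strand. In TSW the mean of ABCA1 was 10.7 RPKM.

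Lysosome and autophagy genes rose in 5 of 29 cases and fell in 0 (11 and 5 at an unadjusted p under 0.05, 5 and 0 with voom). The count was 3 without MONO1, and the median log2 change was 0.14. WIPI1, of autophagosome formation, which overlaps ARSG on the opposite strand, was at 12.7, 15 and 13 RPKM in MONO and at 67.7, 68.6 and 51.9 in CO (2.12 ± 0.12, adjusted p = 4.88e-07). MITF, a factor of lysosomal genes, went from 1.56, 2.46 and 2.92 to 9.31, 8.24 and 9.41 RPKM (1.61 ± 0.15), and FNIP2 from 2.79, 7.65 and 7.7 to 14.1, 13.8 and 14.4 (1.20 ± 0.25). LAMP2, a membrane protein of the lysosome, rose from 16.1 to 25.8 RPKM (0.66), a call lost without MONO1 (0.52) and after the loess correction (0.26). For MONO1, FNIP2 and MITF were lower than in the other MONO libraries. The E-box letters CACGTG were in 8.77% of all promoters, in 13.5% of those of tested genes, in 8 of 22 lysosome promoters (8 with the first and 7 with the last start) and in 0 of 4 that rose.

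Sugar transport and hypoxia genes had 5 of 29 members higher and 2 lower, with a median log2 change of 0.10 (0.20 without MONO2, 0.24 after quantile normalization). SLC2A5, the fructose transporter, was at 0.803, 0.622 and 0.422 RPKM in MONO and at 30, 33.4 and 32.1 in CO, a 51.7-fold ratio, and SLC2A3, a glucose transporter of high affinity, went from 1.89 to 7.89 RPKM (1.62 ± 0.09). HIF1A rose from 3.51, 9.87 and 10.1 to 16.7, 16.6 and 16.4 RPKM (1.11 ± 0.27, and 0.68 without MONO1), while ADM, a peptide gene induced by hypoxia, fell from 102, 108 and 93.4 to 47.7, 50.3 and 50.4 (-1.02 ± 0.08, adjusted p = 9.5e-06). ANKRD37 fell from 6.63 to 3.76 RPKM (-0.68), a call lost without CO3 (-0.58), and it overlaps UFSP2. P4HA2 rose from 2.98 to 5.19 RPKM (0.63), a call lost without CO2 (0.55) or CO3 (0.56) and after quantile normalization. GAPDH, the most abundant enzyme of glycolysis, had 2350 and 1830 RPKM and was not called. The list without CO2 held 3 rises.

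Genes of oxidative stress and iron rose in 5 of 20 cases and fell in 0 (10 and 4 at an unadjusted p under 0.05, 5 and 0 with voom), with a median log2 change of 0.25 (0.14 without MONO1, 0.09 after loess). Ferritin stood out by its level. FTL, the light chain, had 2180, 1690 and 1560 RPKM in MONO and 3180, 4090 and 3640 in CO (1.01 ± 0.18, adjusted p = 0.00186), and FTH1, the heavy chain, had 141, 100 and 105 and then 318, 364 and 338 (1.57 ± 0.14). Both have many pseudogenes, and FTH1 overlaps BEST1 on the opposite strand, which makes their levels uncertain. HMOX1, which breaks down heme, went from 52.4, 51.3 and 54.4 to 96.3, 144 and 109 RPKM (1.11 ± 0.14). The factor NFE2L2 (NRF2), which overlaps HNRNPA3, had 23 and 27.6 RPKM and was not called.

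The glucocorticoid receptor list had 3 of 7 members higher and 0 lower (5 and 0 at an unadjusted p under 0.05, 4 and 0 with voom), and its median log2 change was 0.51. The receptor NR3C1 had 8.4, 16.2 and 16.1 RPKM in MONO and 12.6, 12.5 and 13.1 in CO, with no call and a sign that turned without MONO2 or MONO3. Its targets TSC22D3 (GILZ) and KLF9 rose from 11.2 to 25.3 RPKM (1.11 ± 0.12) and from 1.71 to 4.65 (1.08 ± 0.14). The other target that rose was SGK1, which also stands on the STAT list.

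Genes of the cell cycle were read in 3 lists, and differences between the lists were not tested. Of 55 genes of DNA replication and nucleotide synthesis, 7 fell and 0 rose (32 and 2 at an unadjusted p under 0.05, 8 and 0 with voom), with a median log2 change of -0.32. The count was 3 after quantile normalization, 4 without CO1 and 11 without MONO3. CLSPN, a checkpoint mediator at forks, was at 23.4, 19.2 and 17.9 RPKM in MONO and at 10.9, 10.6 and 12.1 in CO (-0.79 ± 0.12, adjusted p = 0.000878). Of 12 genes of the replicative helicase 4 fell. MCM5 fell from 97.7, 97.2 and 75.7 to 48.5, 61.7 and 51.7 RPKM (-0.73), MCM3 from 169 to 106 (-0.66) and GINS2 from 32.8 to 19.9 (-0.69). MCM3 lost its call without MONO2 (-0.56) or CO1 (-0.58) and after quantile normalization, and GINS2 after the loess correction. PCNA, the sliding clamp, had 342, 282 and 285 RPKM and 164, 205 and 211 (-0.65), and its call was lost without MONO1 (-0.56) or CO1 (-0.53) and after quantile normalization. MCM2 had 141 and 100 RPKM (-0.50) and passed the threshold only without CO2 (-0.60).

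E2F letters TTTCCCGC were in 1.98% of all promoters, in 3.52% of those of tested genes, in 13 of 47 replication promoters (11 with the first or the last start) and in all 5 members that fell and had a promoter in the table (4 with the last start). A second form, TTTGGCGC, was in 0.795% of all promoters, in 1.48% of those of tested genes, in 9 of 47 (6 with the first and 9 with the last start) and in 0 of these 5. The stretches of the 5 genes show the first form in capitals.
MCM3: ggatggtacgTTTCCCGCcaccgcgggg
GINS2: tctcgccgtgGCGGGAAAacggcggccg
PCNA: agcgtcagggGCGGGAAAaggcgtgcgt
CLSPN: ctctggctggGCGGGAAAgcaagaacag
TYMS: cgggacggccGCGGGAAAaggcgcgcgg
They lie at chr6:52284899-52284926 (MCM3), chr16:85688968-85688995 (GINS2), chr20:5126664-5126691 (PCNA), chr1:35769966-35769993 (CLSPN), all on the minus strand, and chr18:657604-657631 (TYMS) on the plus strand, and each match begins before the gene start. TYMS, thymidylate synthase, fell from 93.6, 127 and 104 RPKM to 60.2, 76.3 and 72.7 (-0.62). Its call was lost without MONO2 (-0.50) or CO1 (-0.52) and after quantile normalization or the loess correction, and most of its exons overlap ENOSF1.

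Genes of G2/M and mitosis rose in 7 of 45 cases and fell in 0 (24 and 0 at an unadjusted p under 0.05, 9 and 0 with voom), with a median log2 change of 0.37. Without MONO1 the count was 6 and the median 0.20, and without MONO3 it was 14. Of 8 kinases 5 rose, and 3 rose without MONO1 or after the loess correction. AURKA, of the spindle poles, was at 19, 19.4 and 27 RPKM in MONO and at 34.1, 38 and 34.8 in CO (0.70 ± 0.14, adjusted p = 0.0036). NEK2, of the centrosome, was at 9.86, 11.5 and 17.4 RPKM and at 22.8, 23.1 and 23.3 (0.83 ± 0.17). MONO3 was the highest MONO library for both, and each CO value lay above it. CDK1, the kinase of mitotic entry, went from 39 to 60.9 RPKM (0.64), a call lost without MONO2 (0.53) and after the loess correction, and BUB1, of the spindle checkpoint, from 70.6 to 114 (0.72), lost without MONO1 (0.50). HMMR and CENPA had log2 changes of 0.86 and 0.70. MKI67, the proliferation marker, had 34.7, 52.8 and 51.3 RPKM in MONO and 38.7, 33.1 and 35.7 in CO and was not called.

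Among G1 cyclins, kinases and inhibitors, 3 of 20 rose and 2 fell. Their median log2 change of 0.01 was -0.01 with median-of-ratios scaling, -0.06 after the loess correction and -0.09 without MONO1. CDKN1A (p21) was at 20.7, 20.6 and 16.9 RPKM in MONO and at 51.9, 69.6 and 58.7 in CO (1.58 ± 0.12, adjusted p = 5.54e-06). CDK6 rose from 10.1, 21.2 and 24 to 47.3, 36.3 and 43.6 RPKM (1.23 ± 0.25). E2F1 fell from 49.7, 39.6 and 30.3 to 21, 25.3 and 22.6 RPKM (-0.75), lost without MONO1 (-0.58), and the inhibitor CDKN1C (p57) from 2.07 to 0.84 (-0.75). CDKN2D rose from 4.26 to 7.14 RPKM (0.62), lost without MONO2 (0.58), CO2 (0.56) or CO3 (0.55) and after quantile normalization. The cyclin of these cells, CCND2, had 228, 277 and 304 RPKM and 335, 345 and 357 and stayed under the fold threshold (0.37).

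Ribosome genes moved little. MYC had 345, 402 and 371 RPKM in MONO and 396, 400 and 321 in CO, with overlapping values and a log2 change of -0.01. Of 46 genes of MYC and ribosome biogenesis 1 rose and 0 fell with limma (5 and 14 at an unadjusted p under 0.05, 1 and 1 with voom), and the median log2 change was -0.16. Without MONO3, 3 fell. The snoRNP protein FBL had 417 and 288 RPKM (-0.52) and passed only without MONO3 (-0.65) or CO3 (-0.61), and nucleolin, NCL, had 455 and 355 (-0.36). The rise was MXD1, a MYC antagonist, from 1.74, 3.89 and 3.62 to 5.99, 4.87 and 4.78 RPKM (0.65). Its call was lost without MONO1 (0.38), CO1 (0.56), CO2 (0.68) or CO3 (0.70), with no expression filter, with only the 2 conditions compared, and after quantile normalization or the loess correction. CACGTG was in 17 of 38 promoters of this list (14 with the first and 17 with the last start).

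Ribosomal proteins of the cytosol had 1 of 78 members higher and 3 lower, with a median log2 change of -0.27, and without MONO1 1 higher, 0 lower and -0.09. After quantile normalization the median was -0.07 and after loess -0.11. Without MONO3, 11 were lower, and without CO1, CO2 and CO3 0, 6 and 1. RPLP1 had 2820, 2760 and 2180 RPKM in MONO and 1400, 1980 and 1740 in CO (-0.60), and RPL28 went from 175 to 113 (-0.60). Both calls were lost without MONO1 (-0.54 and -0.39) or CO1 (-0.47 and -0.65), with no expression filter, with only the 2 conditions compared and after quantile normalization. RPLP1 was also lost without MONO2 (-0.55) or CO3 (-0.63) and RPL28 without CO3 (-0.46), and the loess correction ended the call of RPLP1. RPS2 rose from 569, 404 and 391 to 680, 695 and 675 RPKM (0.61), lost without MONO2 (0.53) or MONO3 (0.51), and its 55 named pseudogenes make it uncertain.

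Mitochondrial ribosomal proteins fell in 4 of 75 cases and rose in 0 (22 and 5 at an unadjusted p under 0.05, 4 and 0 with voom), with a median log2 change of -0.18, and without MONO1 0 fell and the median was -0.09. Of all tested genes, 4.65% fell. MRPL54 had 159 and 101 RPKM (-0.64) and MRPL27 65.9 and 41.1 (-0.67). Both calls were lost without MONO1 (-0.47 and -0.51) or CO1 (-0.51 and -0.47) and after the loess correction, and MRPL54 after quantile normalization. MRPL11 had 58 and 36.4 RPKM (-0.63), lost without MONO1 (-0.42) or CO1 (-0.54), and MRPL32 59.4 and 38.3 (-0.61), lost without MONO1 (-0.48), both also after quantile normalization or the loess correction. Nuclear-encoded subunits of oxidative phosphorylation fell in 2 of 75 cases and rose in 0 (15 and 1 at an unadjusted p under 0.05, 1 and 0 with voom), with a median of -0.16 (-0.04 without MONO1, -0.00 after quantile normalization and -0.01 after loess). The count was 0 after quantile normalization or without CO1, 5 without CO2 and 7 without MONO3. NDUFB2, which overlaps BRAF on the opposite strand, fell from 321, 278 and 236 to 125, 197 and 180 RPKM (-0.75), lost without CO1 (-0.55) and after quantile normalization or the loess correction. NDUFB7 had 178, 115 and 102 RPKM and 70.9, 94.6 and 90.4 (-0.59), and its call was lost in many settings, with -0.35 without MONO1, -0.46 without CO1 and -0.63 without CO3. It was also lost when any TSW library was left out (-0.59 each), with no expression filter, with only the 2 conditions compared, with voom, with replicates as a block and after quantile normalization or the loess correction.

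Surface proteins used as targets in myeloma, with immune ligands, had 2 of 17 members higher and 4 lower, and a median log2 change of -0.22 (-0.13 without MONO1, -0.11 after loess). Without CO1, 2 were lower. TNFRSF17 (BCMA), the receptor targeted by antibodies and CAR T cells (chr16:11965210-11968068), was at 216, 145 and 157 RPKM in MONO and at 36.8, 42.7 and 34.1 in CO (-2.14 ± 0.14, adjusted p = 1.71e-06). Its CO values were all far below those of MONO, and the TSW mean was 48.2. GPRC5D, another such target, fell from 11.6, 11.3 and 10.2 to 1.02, 1.48 and 1.13 RPKM. SDC1 and CD38 had overlapping values and no call. Cells without CD38 at the surface were left out by the sort, so a loss of CD38 may have been missed. ITGB7 had 2070 and 1340 RPKM (-0.63), lost without MONO1 (-0.58) or CO1 (-0.57) and after quantile normalization or the loess correction, and it overlaps ZNF740 on the opposite strand. LY9 had 20.3 and 13.2 RPKM (-0.59), lost without MONO2 (-0.53), CO1 (-0.56) or CO3 (-0.56). The checkpoint ligands CD274 (PD-L1) and PDCD1LG2 (PD-L2) rose, CD274 from 0.554, 0.579 and 0.436 to 2.19, 1.99 and 2.28 RPKM (1.05 ± 0.11) and PDCD1LG2 from 1.3 to 2.95 (0.77).

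Factors of plasma cells and B cells had 4 of 20 members higher and 4 lower, and a median log2 change of 0.03 that was 0.10 without MONO2 and -0.01 after quantile normalization. BCL6, the germinal center repressor, was at 0.204, 0.131 and 0.168 RPKM in MONO and at 3.72, 4.23 and 3.98 in CO, a 23.8-fold ratio (2.09 ± 0.09, adjusted p = 4.83e-08). PRDM1 (BLIMP1), the plasma cell factor known to oppose it, rose from 24.7, 34.2 and 34.2 to 53.6, 47.1 and 48.8 RPKM (0.68), a call lost without MONO1 (0.53) and after the loess correction. Both genes were thus higher in CO. TCF3 fell from 42.8 to 26.2 RPKM (-0.69), and RUNX1 from 8.31 to 5.07 (-0.60), lost without MONO2 (-0.55), MONO3 (-0.51) or CO2 (-0.54). POU2F2 had 3.26, 1.67 and 1.57 RPKM in MONO and 4.18, 3.55 and 3.36 in CO (0.60). Its call was lost without MONO2 (0.50), MONO3 (0.47) or CO1 (0.53), with no expression filter, with only the 2 conditions compared and after quantile normalization.

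Of the 33 tested immunoglobulin genes, JCHAIN included and counted after their values were seen, 13 fell and 2 rose, with a median log2 change of -0.82. After loess 7 fell and 4 rose (-0.48), and without CO3 8 fell. The falls named here are among the 10 largest of mean RPKM or the largest log2 changes. JCHAIN, which joins antibody multimers, had 4100, 3400 and 3750 RPKM in MONO and 2020, 2010 and 1920 in CO (-0.91 ± 0.14). IGLL5 fell from 3610, 3470 and 2080 to 1150, 1180 and 1050 RPKM (-1.40 ± 0.20), IGLV2-23 from 3700, 7760 and 3050 to 1820, 1870 and 1560 (-1.35 ± 0.29) and IGLV2-11 from 1590 to 737 (-1.10). IGLV2-34 fell from 2200 to 1280 RPKM (-0.75), lost without CO3 (-0.66), with only the 2 conditions compared and after quantile normalization or the loess correction. IGLV2-8 had 133, 898 and 112 RPKM in MONO and 70.7, 58.9 and 59.9 in CO (-1.90 ± 0.60, adjusted p = 0.0346), so MONO2 set most of its mean (-0.94 without it). Its call was lost without CO1 (-1.98), CO2 (-1.85) or CO3 (-1.86), and without TSW2 or TSW3 (-1.90 each), with no expression filter, with only the 2 conditions compared and after the loess correction. The light chain segments are near-identical copies, and their separate levels are uncertain. All MONO values of these genes lay above all CO values.

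Chemokines and their receptors had 2 of 15 members higher and 7 lower, with a median log2 change of -0.38 (-0.22 without MONO1). Both that rose passed the RPKM threshold only through CO, and without genes under 2 RPKM in MONO and TSW 0 of 13 rose, 7 fell and the median was -0.85. CCL3, the macrophage inflammatory protein of myeloma bone disease, fell from 189, 136 and 117 to 13, 19.7 and 13.9 RPKM (-3.16 ± 0.20, adjusted p = 1.4e-06), and its copy CCL3L3 from 28.3 to 9.77 (-1.42). CCL5 fell from 41.7, 28.1 and 26.3 to 3.93, 4.27 and 3.91 RPKM (-2.68 ± 0.15). By role, 3 of 5 CCL ligands fell and 1 rose, 1 of 3 CXCL ligands rose, and 3 of 4 receptors fell. CXCR3 fell from 11.5, 11.6 and 11.3 to 1.57, 2.04 and 1.46 RPKM (-2.22 ± 0.15). CXCR4, the homing receptor chosen after its values were seen, fell from 74.8, 84.3 and 82.5 to 40.5, 47.5 and 44.9 (-0.85 ± 0.10). RGS1, which damps chemokine receptors, fell from 183, 171 and 175 to 86.9, 71.2 and 72 RPKM (-1.20 ± 0.10). The members that rose were CXCL8 and CCL2, described with the genes that stromal cells also express. CCL3 overlaps CCL3-AS1 on the opposite strand, and its reads and those of CCL3L3 could be split by the counting.

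Adhesion molecules had 2 of 19 members higher and 6 lower (4 lower without CO1), and a median log2 change of -0.27. CD44, the hyaluronan receptor, fell from 69.2, 97.4 and 96.8 to 40.1, 39.2 and 34.4 RPKM (-1.18 ± 0.13, adjusted p = 9.48e-05). CDH2 (N-cadherin) fell from 5.49 to 2.57 RPKM (-0.87) and the tetraspanin CD82 from 43 to 23.1 (-0.83). Beside ICAM1, the integrin ITGA6 rose, from 3.13, 5.27 and 5.94 to 8.44, 8.11 and 8.34 RPKM (0.72), a call lost without MONO1 (0.50) and after the loess correction. No CO value of these genes lay within the MONO range.

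Genes of secreted factors rose in 4 of 13 cases and fell in 3, with a median log2 change of 0.41 (0.27 after quantile normalization). Without genes under 2 RPKM in MONO and TSW, IL1B among them, 3 of 11 rose, 3 fell and the median was 0.08. IL32, a cytokine of lymphoid cells, was at 0.25, 0.197 and 0.34 RPKM in MONO and at 94.2, 87.9 and 91 in CO, the largest log2 change of the table (6.19 ± 0.10). SPP1 (osteopontin), a matrix protein of bone, went from 0.0612, 0.347 and 0.374 to 2.94, 2.44 and 2.67 RPKM (1.56 ± 0.15). TGFB1 fell from 22.5, 19.6 and 16.9 to 11.5, 11.6 and 9.68 RPKM (-0.79), and IL16, which overlaps STARD5 on the opposite strand, from 20.7 to 11.8 (-0.76). TNFSF13 (APRIL), a survival factor of plasma cells, had 2.49, 4.54 and 4.07 RPKM and 1.91, 1.8 and 2.35 (-0.61). Its call was lost without MONO2 (-0.48), MONO3 (-0.55), CO1 (-0.59) or CO2 (-0.56), with no expression filter and after the loess correction.

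The BCL2 family and apoptosis genes had 2 of 20 members higher and 1 lower, with a median log2 change of 0.22. Of all tested genes, 7.13% were higher and 4.65% lower. CFLAR, the inhibitor of caspase 8, rose from 6.16, 6.83 and 6.51 to 12, 10.9 and 11.9 RPKM (0.75 ± 0.09), and CASP8 itself from 26 to 42.1 (0.68 ± 0.08). The loess correction ended both calls (0.46 and 0.55). BAD, a BH3 protein, fell from 23.6, 17.6 and 14.4 to 8.88, 10.2 and 10.6 RPKM (-0.82 ± 0.16), and it overlaps GPR137. BCL2L1 (BCL-xL) had 131 and 162 RPKM and did not pass the fold threshold (0.31).

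ERK feedback genes had 4 of 11 members higher and 1 lower, and a median log2 change of 0.09 that was 0.03 without MONO1 and -0.01 after quantile normalization. ETV5, an ETS factor, rose from 2.22, 4.01 and 3.86 to 14.2, 15.2 and 15.2 RPKM (1.89 ± 0.15, adjusted p = 8.17e-06), its relative ETV4 from 0.62 to 2.13 (0.95) and the phosphatase DUSP5 from 81.2, 80 and 74.5 to 133, 154 and 145 (0.86). DUSP4 fell from 11.6 to 6.23 RPKM (-0.80). SPRED1 had 2.58, 4.15 and 5.43 RPKM and 6.47, 5.85 and 7.04 (0.60), and its call was lost without MONO1 (0.37), CO1 (0.60) or CO3 (0.54), with no expression filter, with only the 2 conditions compared, with median-of-ratios scaling and after quantile normalization or the loess correction.

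Notch, HES and ID genes had 2 of 9 members higher and 3 lower, with a median log2 change of -0.23 (-0.06 after loess). ID3, an inhibitor of E proteins such as TCF3, fell from 23.2, 22 and 21.4 to 6.62, 9.47 and 8.23 RPKM (-1.36 ± 0.12), ID2 from 17.3, 12.3 and 12.9 to 4.51, 4.83 and 5.99 (-1.30 ± 0.14) and HES6 from 12.8 to 1.6 (-2.41). The receptor NOTCH2 had 7.22, 16.3 and 17 RPKM in MONO and 21.4, 21.8 and 24.3 in CO (0.78). Its call was lost without MONO1 (0.41), CO1 (0.81), CO2 (0.80) or CO3 (0.72), with no expression filter and with only the 2 conditions compared. The ligand JAG1 rose from 5.96 to 10.1 RPKM (0.69), lost without MONO1 (0.50). MONO1 was the lowest MONO library for both.

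The STAT letters were searched in the promoters of the first group. TTCNNNGAA was in 9.38% of all promoters, in 8.34% of those of tested genes, in 1 of 26 members of the JAK and STAT list and in 0 of 9 that rose. TTCCNGGAA, a form of it preferred by STAT3, was in 1.44% of all promoters, in 1.62% of those of tested genes and also in 1 of 26 and 0 of 9. Counts of 1 and 0 are too few to set against these shares. The windows cover 250 bases before each start, and letters elsewhere in a gene were not searched.

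Genes outside the lists were also among the largest changes. PVALB (parvalbumin), a calcium buffer, was at 1.89, 0.732 and 0.351 RPKM in MONO and at 18.4, 23.6 and 23.9 in CO (3.59 ± 0.22, adjusted p = 1.1e-06). TEX19, a gene of germ cells, went from 2.01, 1.84 and 1.05 to 24.9, 20.4 and 20.2 RPKM (3.13 ± 0.14), and CRYBB1, a lens crystallin, from 81.8, 74.9 and 62 to 217, 264 and 260 (1.75 ± 0.12). IDH2, of the mitochondrial citrate cycle, rose from 158 to 302 RPKM (0.94). TENT5C, a poly(A) polymerase mutated in myeloma, rose from 236 to 381 RPKM (0.69), lost without MONO1 (0.57) and after the loess correction.

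Among the falls, PCP4, a calmodulin regulator, went from 538, 416 and 374 to 84.4, 97.8 and 77 RPKM (-2.33 ± 0.14). SPINK2, a protease inhibitor, went from 20.3 to 1.5 RPKM (-3.08), and LAMP5 from 68.9, 70.1 and 67.1 to 18.9, 21.4 and 19.6 (-1.74 ± 0.10). HOMER3, a scaffold of receptor signaling, went from 42.3, 33.1 and 29.5 to 8.49, 10.3 and 10.2 RPKM (-1.74 ± 0.13). MTMR10, a lipid phosphatase homolog, fell from 25.2 to 5.23 RPKM (-2.06), AMPD1, the AMP deaminase, from 7.37 to 1.41 (-1.79) and MAL2, of apical transport, from 12.1 to 2.77 (-1.79). ACTG1, cytoplasmic actin, fell from 1720, 1770 and 1770 to 700, 926 and 799 RPKM (-1.13 ± 0.13), and has 21 named pseudogenes. TMSB10, a thymosin that binds actin monomers, fell from 1490, 1080 and 893 to 546, 667 and 546 RPKM (-0.95 ± 0.17).

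The stromal markers were the remaining list. Of 50 markers 20 were tested, and 17 of these passed the threshold only through CO, which selects for a rise in CO. By limma 18 rose and 0 fell (19 and 1 at an unadjusted p under 0.05, 18 and 0 with voom), with a median log2 change of 2.54, or 2.52 with genes at 0 set to a floor of 3 read pairs. After genes under 2 RPKM in MONO and TSW were left out, 1 of 3 rose and the median was 0.39. MMP1, the collagenase, was at 0 in all MONO and TSW libraries and at 44.5, 46.9 and 41 RPKM in CO, at least 380-fold higher against 3 pairs per library. COL1A2 and COL3A1, collagen chains, were at 0 in MONO and at means of 11.5 and 9.64 RPKM in CO, at least 260-fold and 222-fold higher. MMP3 and TFPI2 were at 0 in MONO and at 10.9 and 18.2 RPKM in CO, at least 83.7-fold and 186-fold higher. COL1A1 had means of 0.0988 and 5.46 RPKM, and COL5A1 0.697 and 2.3. CAV1 and SPARC, which MM.1S cells express without stroma, had 17.6 and 3.78 RPKM in MONO and 13.6 and 5.26 in CO, without a call.

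Against TSW, 38 genes were higher in CO (0.374%) and 4 lower (0.0394%), and 18 of the higher genes were stromal markers. After genes under 2 RPKM in MONO and TSW were left out, 4 were higher and 2 lower. Several of the others were at or near 0 in MONO and TSW. CXCL8 (IL8) was at 0 in all MONO libraries and at 25.5, 23 and 22.7 RPKM in CO, at least 169-fold higher, SERPINB2 at 0 and at 9.06, 10.1 and 10.8, at least 90.6-fold higher, and CSF3 at 0 and at 3.83, 3.02 and 2.33, at least 22.7-fold higher. IL1B was at 0, 0.0595 and 0 RPKM in MONO and at 9.89, 11.1 and 12.3 in CO. The stromal marker CCL2 had means of 0.156 and 5.15 RPKM. CLDN11 had means of 0.00612 and 3.83, and MMP14 of 0.0103 and 4.78. Myeloma and stromal origin of these transcripts cannot be told apart in bulk RNA.

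Other genes higher in CO than in TSW had reads in MONO as well. FN1 (fibronectin) was at 1.59, 3.79 and 3.38 RPKM in MONO, at a mean of 2.47 in TSW and at 17.7, 19.9 and 14.5 in CO. RND3 had means of 1.96, 1.25 and 10.1 RPKM in MONO, TSW and CO, MME (CD10) of 1.65, 1.29 and 6.23, and MT2A, a metallothionein, of 2.62, 0.85 and 13.6. GNG11 had 0.58, 0.384 and 3.9 RPKM, LOXL2 0.47, 0.693 and 2.77, and NIBAN2 1.39, 0.6 and 1.95. ENPP2 (autotaxin) had 0.114, 1.97 and 3.71 RPKM, LGALS3BP 0.293, 1.21 and 3.07, and GPNMB 3.95, 2.81 and 5.53. Each CO library lay above all MONO and TSW libraries for these genes.

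A few genes of the earlier groups also differed between CO and TSW. HMOX1 had a mean of 62.7 RPKM in TSW and 117 in CO (log2 change against TSW 0.87, adjusted p = 0.0247), SOD2 27 and 41 (0.59), and GBP4 3.87 and 6.85 (0.70). SCNN1G, a sodium channel subunit, had 25.3 RPKM in MONO, 7.28 in TSW and 12.3 in CO, so it was lower in CO than in MONO (-0.98) and higher than in TSW (0.69). The 4 genes lower in CO than in TSW were CCL3 (-1.85), CCL3L3 (-1.37), CCL4L2 (-0.84) and CDKN1A (-0.69). CCL4L2 had 2.77 RPKM in MONO, 4.17 in TSW and 1.88 in CO. For SOCS3, DDIT4, HLA-DRA and TNFRSF17 the log2 changes against TSW were 0.09, 0.40, 0.23 and -0.35, none of them called. The comparisons with MONO and with TSW share the CO libraries, so their values are only set side by side.

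RPMI8226 cells give the same comparison in another line and a separately normalized table. There 1693 of 10319 genes (16.4%) were higher in CO than in MONO and 2363 (22.9%) lower, with n = 2 per condition. Of the 724 MM.1S genes that rose, 652 were tested in RPMI8226 and 390 rose there too, while 23 fell. Of the 472 that fell, 394 were tested, 200 fell too and 25 rose. In the ATF4 list 22 of 36 rose in RPMI8226 and 27 of 36 in MM.1S, and SOCS3 had log2 changes of 4.37 and 5.95. All 44 tested interferon-stimulated genes rose in RPMI8226, with a median of 2.43, against 11 of 31 in MM.1S. The tested sets differ between the lines, since each filter averaged all libraries of its own line, CO and TSW included. Genes low in MONO could therefore be tested because of their level in CO or TSW, which selects for rises. In the class II list 1 of 13 fell and 2 rose in RPMI8226, with a median of 0.09, against 9 of 14 that fell in MM.1S. In the G2/M list 22 of 44 fell in RPMI8226 and 0 rose, with a median of -0.57, against 0 and 7 of 45 in MM.1S. In the replication list 47 of 55 fell in RPMI8226, against 7 of 55 in MM.1S. Whether the lines differ in these lists was not tested.

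Several limits apply to all of these results. The RNA is bulk RNA of 1 line from 3 libraries per condition, and it gives no protein level. The sort by CD38 and CD90, the trypsin step and reads from HS5 cells may each differ between CO and MONO, as do soluble factors and contact, and their parts cannot be told apart in this comparison. In TSW, without contact and with the summed stromal markers between 29.1 and 32.7 RPKM, SOCS3 had a mean of 64.4 RPKM, ABCA1 10.7 and HLA-DRA 120. Genes higher in CO that are near 0 in MONO and TSW may come from either cell type. MONO1 was shallow and apart from the other MONO libraries, and many calls near the fold threshold rest on it or on CO1. Levels of gene families and of genes with many pseudogenes are uncertain. So are those of ICAM1, IER3, IER2, HLA-DMB, ASNS, HMGCS1, MCM2, GAPDH, BCL2L1, TNFSF13, SERPINB2 and CLDN11, which overlap other transcripts in at least 20% of their exon bases.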

How the data were processed

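The deposited tables give log2(RPKM + 1) plus an offset of 0.0001 for 20468 RefSeq genes. RPKM was recovered by subtracting the offset, raising 2 to the value and subtracting 1. The authors aligned read pairs to hg38, counted them with Subread featureCounts and called genes with edgeR. The authors also left out HS5 signature genes and genes with closed promoters, which was not repeated here. Strand use in the counting is not given in the sources used here. Of the gene symbols, 898 were updated to current names.

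Genes whose RPKM averaged 1 or more across the 9 MM.1S libraries entered a linear model of log2(RPKM + 1), fitted by limma (version 3.58.1, under R 4.3.3), with MONO, TSW and CO in 1 fit, no covariate and an eBayes trend. A call needed a p under 0.05 after Benjamini-Hochberg adjustment together with a change of more than 1.5-fold. The 2 lines were normalized separately and tested separately. Replicates of the same number were not treated as pairs, since their residual correlations between MONO and CO were -0.183, -0.0276 and 0.0775. Between TSW and CO, which may share wells, they were -0.38, 0.000159 and 0.0421, and that comparison was also fitted without pairs. Read pairs were recovered from RPKM and gene length for voom, and fold changes given as at least a value use a floor of 3 pairs per MONO library. Tables were made in Python 3.11.15 with numpy 2.4.6, pandas 2.3.3 and matplotlib 3.10.9.

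Members, lists and motifs were chosen with earlier results of these data known. Genes named in the text were, in each list, up to 4 called members per direction with the largest log2 change, the member with the highest RPKM in MONO and the first gene of each role. Over all genes they were the 15 largest rises and falls without overlap of CO and MONO, the 10 largest rises and falls of mean RPKM, and genes called in CO against TSW outside the stromal list. Outside this rule 25 genes were named. MZB1, SLAMF7, POU2AF1, CD27, FCRL5 and PDGFRB served to check cell identity and stromal RNA. Chosen after values were seen were CD38, COL5A1, CXCR4, DDIT3, HLA-DRB5, PSAT1, SDC1, SLC7A5 and STAT4, and, for their promoters, EPSTI1, GBP1, MAP3K8, MARS1, MX1, NARS1, NFKBIZ, PARP14, TARS1 and TYMS. Genes near the RPKM threshold, overlapping genes, RPS14P3, LUM and DCN are named only for that and are not counted. The promoters shown are those of every called member of the motif's own list that holds the letters, except the ER list, given by counts.

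The text departs from the rule, which gives 299 genes, by not describing 88 of them. Of the 88, 5 were called in CO against MONO and 13 were not tested, so the genes described lean toward called genes. A few genes, these 5 among them, are not reported here, and they still count in the lists. The others were left out for length, and none of them was called. They are SQSTM1, TRAF1, BATF, EGR1, IRF1, ISG15, RIGI, USP18, TAP1, PSMB8, CTSS, SLC1A4, VLDLR, P4HB, HERPUD1, SEC61A1, CCT2, HSPD1, HSF1, PSMA1, PSMC1, PSMD1, PSME1, EBP, ACLY, NR1H2, ABCB1, ORC1, POLA1, RPA1, RRM1, NUSAP1, CCNA2, CDC20, KIF11, CCND1, CDK2, RB1, NOP2, POLR1A, RPL8, RPL10L, RPS29, FAU, MRPL51, MRPL21, KGD4, COX7C, NDUFS7, SDHA, UQCRB, COX4I1, ATP5F1A, SLC2A1, HK1, GCLC, NQO1, CTSD, FLCN, CTSA, LAMP1, HEXA, HSD11B1, CRBN, PAX5, CXCL1, CCR1, ITGA4, BAX, BCL2L11, TNFRSF10A, DUSP2, SPRY1, NOTCH1, HES1, ID1, VEGFB, DKK1, IL6 and CXCL12.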

Additional observations from a re-analysis of the deposited data

Results flagged for a closer look

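In 45 named genes CO and MONO values did not overlap in either line, and the log2 change had the opposite sign in RPMI8226. Named genes of opposite sign whose values overlapped in a line are not listed. The RPMI8226 table was normalized separately, with n = 2 per condition. Whether the lines differ was not tested for any of the 45, and some values are close to 0.

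Higher in MM.1S, the RPMI8226 values were PIM1 -0.19, IL6R -0.50, IARS1 -0.27, EPRS1 -0.10, HSPA1A -0.32, HMMR -0.48, NEK2 -0.30, BUB1 -0.60, AURKA -0.78, CENPA -0.41, CCND2 -0.98, FTH1 -0.51, HMOX1 -4.63, FTL -0.62, BCL2L1 -0.08, NOTCH2 -0.24, JAG1 -0.35, PVALB -0.15, SOD2 -0.28, NIBAN2 -0.55 and FN1 -0.99.

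Lower in MM.1S, the RPMI8226 values were TNFAIP8 0.41, TNFAIP3 0.82, HLA-DRA 0.09, HLA-DRB1 0.19, CD74 0.77, HLA-DRB5 0.25, TXNDC11 0.21, SSR4 0.16, ERP44 0.58, CALR 0.10, RPL28 0.10, ANKRD37 0.96, ITGB7 0.41, JCHAIN 1.02, RUNX1 0.43, CCL5 1.66, RGS1 3.38, CD44 0.21, CD82 0.22, DUSP4 0.28, ID3 1.38, ID2 0.28, TNFSF13 0.31 and TMSB10 0.28.

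Called in both lines, in opposite directions, were TNFAIP3, CD74, BUB1, AURKA, ANKRD37, HMOX1, FTL, JCHAIN, CCL5, RGS1, ID3 and FN1.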

How the results depend on the processing

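Of 232 named genes tested, 199 were called, 152 of these kept their call in every setting that tested them, and none changed sign. Calls were lost for 28 genes after loess for GC and length, 25 without MONO1, 22 after quantile normalization and 20 without CO1.

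MM.1S genes higher in CO than in MONO were 724, 479 at a mean RPKM of at least 5 and 1647 without a fold threshold, and 549 to 1028 with a library left out. Lower genes were 472, 1528 without a fold threshold, and 395 to 674 with a library left out. With replicates as a block they were 736 and 473.

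Against TSW, 38 were higher, 128 without an expression filter, 5 at a mean RPKM of at least 5, 4 without genes under 2 RPKM in MONO and TSW, 36 with replicates as a block, and 24 to 45 with a library left out. Lower were 4, also 4 with the block, 2 at a mean RPKM of at least 5, 7 after quantile normalization, 11 with only the 2 conditions in the fit, 2 without genes under 2 RPKM, and 2 to 8 with a library left out. In RPMI8226, 3123 were higher and 4299 lower without a fold threshold.

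Genes that were not called turned sign as follows, with the range over libraries left out. BST2 was 0.10 after quantile normalization and 0.10 after loess (-0.21 to 0.12), MYC 0.16 and 0.07 (-0.06 to 0.10), and SDC1 0.16 and 0.08 (-0.10 to 0.07). HSPA5 was 0.18 after quantile normalization (-0.06 to 0.05) and HMGCS1 -0.00 after loess. NR3C1 went from -0.32 to 0.12, IRF4 from -0.01 to 0.18 and CD38 from -0.10 to 0.27 with a library left out. MZB1 was 0.05 after loess and ranged from -0.36 to 0.02 with a library left out.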
